A study of Mus musculus with 6 samples.

Results

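The carriers and channels that move adenine nucleotides and phosphate through the mitochondrial membranes were examined as a set of 7 genes in mouse blastocysts. They are the ADP/ATP carriers *Slc25a4* and *Slc25a5*, the phosphate carrier *Slc25a3*, the porins *Vdac1*, *Vdac2* and *Vdac3*, and the permeability transition regulator *Ppif*. The genes were chosen by symbol from the 55774 rows of the deposited table of expression values. All 7 were listed, and all 7 were among the 11924 genes with at least 1 FPKM (fragments per kilobase of transcript, scaled to the sequenced fragments of the library) in at least 3 libraries. They did not depend on 1 group to pass this filter, since the lowest value of any of them in any library was 29.0 FPKM.
Wild-type embryos at the 2-cell stage, flushed from the oviducts of female ICR mice, were cultured to blastocysts in CZB medium supplemented with extracellular vesicles (EVs) from human Fallopian tubes. The oEV-EMT group received vesicles from women with endometriosis. The oEV-ctrl group received vesicles from women without it, for whom the sample labels name uterine fibroids while the methods of the study name cervical intraepithelial neoplasia. Each group had 3 libraries, each from a pool of 10 blastocysts, and no library from embryos cultured without vesicles was analysed here. The sources used here do not say how embryo litters or vesicle donors were spread over the pools, so the spread between libraries may be partly technical. In pooled embryos, fewer cells of a type and less RNA per cell cannot be told apart.

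ATP made by the ATP synthase in the mitochondrial matrix leaves the organelle through the ADP/ATP carriers of the inner membrane, which exchange it for ADP. The phosphate carrier brings in the inorganic phosphate that the same reaction consumes. In the outer membrane, the porins, or voltage-dependent anion channels, let nucleotides, phosphate and other small metabolites pass. *Ppif* encodes cyclophilin D, a matrix peptidyl-prolyl isomerase that promotes opening of the permeability transition pore, a large-conductance state of the inner membrane. Oxidative phosphorylation gains in importance as the mouse embryo reaches the blastocyst stage.

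Several of these genes have near-identical copies elsewhere in the genome, so their sequences are shown before their values. The stretches are the first 120 bases of the longest coding part of an exon and the aligned stretches of related genes, from the GENCODE M21 transcripts on GRCm38, each 5′ to 3′ along the gene. The first set shows how far the ADP/ATP carriers differ from each other and from a processed pseudogene. *Slc25a5* is read from exon 2 at chrX:36796843-36796962 (plus strand), *Slc25a4* at chr8:46209389-46209508 (minus strand) and the pseudogene *Gm5560* at chr5:97264939-97265058 (plus strand), and capitals mark the bases that differ from *Slc25a5*.
Slc25a5: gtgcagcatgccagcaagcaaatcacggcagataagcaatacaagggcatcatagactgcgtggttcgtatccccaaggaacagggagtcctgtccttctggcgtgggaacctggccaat
Slc25a4: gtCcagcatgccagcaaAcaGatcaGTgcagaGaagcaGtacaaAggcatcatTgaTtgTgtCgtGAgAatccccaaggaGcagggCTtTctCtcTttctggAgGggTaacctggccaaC
Gm5560: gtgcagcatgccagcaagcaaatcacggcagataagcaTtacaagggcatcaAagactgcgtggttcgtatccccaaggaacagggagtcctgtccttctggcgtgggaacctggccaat
*Slc25a4* differed from *Slc25a5* at 25 of these 120 bases, and *Gm5560* at 2. Over the whole coding sequence of 894 bases, which the ADP/ATP carriers share in length, 77.4% of the bases were identical. *Slc25a4* shared no stretch of 50 identical bases with any other listed gene, so its reads can be told apart from those of *Slc25a5*. For *Slc25a5*, 33.8% of the 50-base stretches also occurred in other listed genes. Of these genes, 4 shared at least 10% of the stretches of either gene of the pair, and all 4 were pseudogenes. Only *Gm5560* and *Gm5529* shared at least 10% of the stretches of *Slc25a5* itself, with 21.1% and 16.2%.

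The second set shows *Vdac3*, exon 6, at chr8:22580448-22580567 (minus strand) beside its pseudogene *Vdac3-ps1* at chr13:18031151-18031270 (minus strand), with the differing base in capitals.
Vdac3: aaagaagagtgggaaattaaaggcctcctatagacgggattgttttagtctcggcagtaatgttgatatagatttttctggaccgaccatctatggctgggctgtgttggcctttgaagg
Vdac3-ps1: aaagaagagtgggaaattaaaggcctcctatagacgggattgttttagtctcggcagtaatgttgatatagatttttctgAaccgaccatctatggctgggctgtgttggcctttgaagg
The stretches differed at 1 of 120 bases. Of the 50-base stretches of *Vdac3-ps1*, 79.8% also occurred in *Vdac3*, so a read from either could be assigned to the other in the authors' quantification. *Vdac1* and *Vdac2* shared 1.41% and 4.06% of their stretches with other listed genes, and *Slc25a3* 1.50%. *Ppif* overlaps an antisense gene, *Ppifos*, which was listed at 0 in all 6 libraries.

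The FPKM of a library summed to between 1293175 and 1551567. Depth relative to the shallowest library, oEV-ctrl 1, was read from the steps between low values, and lay between 1.21 and 2.07 in the oEV-EMT libraries and reached 1.82 in oEV-ctrl. An unannotated entry held 15.3% to 19.0% of the sum in oEV-EMT and 19.7%, 21.3% and, in oEV-ctrl 1, 31.5% in oEV-ctrl, without overlap. The mitochondrial genome held 3.93% to 4.84% of the sum in oEV-EMT and 5.96% to 7.45% in oEV-ctrl, without overlap. All 8 trophectoderm markers, 8 of 8 epiblast markers and 7 of 8 primitive endoderm markers were expressed highly enough to be tested. The summed level of the epiblast markers was 107 to 148 FPKM in oEV-EMT and 60.3 to 104 in oEV-ctrl, without overlap, whereas trophectoderm markers (3179 to 4764 against 3117 to 4864) and primitive endoderm markers (136 to 263 against 182 to 237) overlapped. Of the 8 epiblast markers taken singly, 3 did not overlap between the groups, all with oEV-EMT above, against 18.1% of all tested genes. Cumulus cell markers summed to at most 0.486 FPKM in any library, with *Ptx3*, *Amh* and *Fshr* at 0 in all of them. Sperm markers summed to at most 3.40 FPKM, with *Tnp1* and *Akap4* at 0 throughout. Of the oviduct epithelium markers, *Foxj1* and *Muc16* were at 0 throughout, and the list's sum of 302 to 563 FPKM, nearly all of it *Epcam*, overlapped between groups, with 2 of its 6 genes high enough to be tested and *Sox17* also on the primitive endoderm list.

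All 7 genes were highly expressed relative to the median tested gene, whose mean was 7.74 FPKM. *Slc25a5* was the most abundant at 1091 ± 177 FPKM (SD, n = 6 libraries of both groups), in place 140 of the 11924 tested genes. *Vdac3* followed at 456 ± 61.0 and *Slc25a3* at 354 ± 67.0 FPKM (SD, n = 6). *Slc25a4* stood at 162 ± 31.0, *Vdac2* at 110 ± 10.1, *Vdac1* at 65.9 ± 12.2 and *Ppif* at 45.0 ± 10.8 FPKM (SD, n = 6). Because FPKM are per length, these levels can be set side by side.
Of the 6 pairs of neighbours in this order, 5 kept their order in all 6 libraries (exact two-sided sign-flip permutation test over libraries, adjusted p = 0.0375 each over the 6 pairs). The pairs were set by the means of the same libraries, and each of these 5 stood at the smallest p that 6 libraries allow, so the test describes only how steady the order was. *Vdac3* exceeded *Slc25a3* in 4 of the 6 libraries, and the order of these neighbours was not beyond their spread (exact permutation test, p = 0.125). That rests on how reads were split between *Vdac3* and its pseudogenes, since with their values added *Vdac3* had 544 to 762 FPKM and exceeded *Slc25a3*, at 251 to 426, in all 6 libraries. The coefficient of variation over the 6 libraries ran from 9.17% for *Vdac2* to 24.0% for *Ppif*, against a median of 26.8% over all tested genes. That reference is not at a like level, since the median tested gene stood at 7.74 FPKM. The 7 values summed to between 2005 and 2476 FPKM in oEV-EMT and between 2082 and 2363 in oEV-ctrl.

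**Figure D1:**
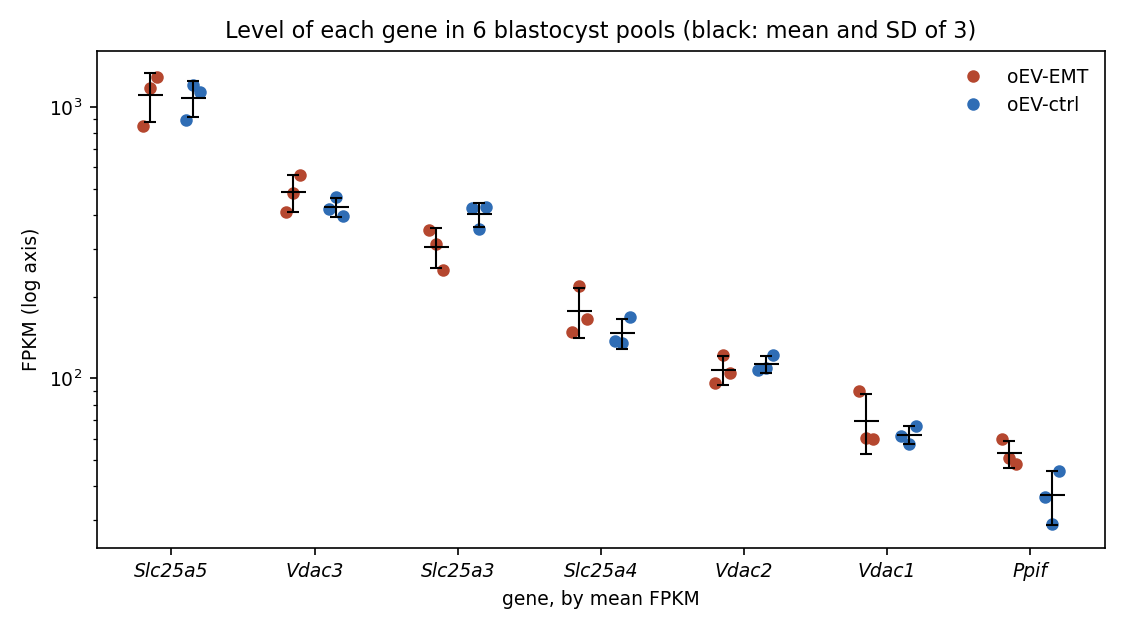
FPKM on a log axis of the 7 genes in the 3 oEV-EMT and 3 oEV-ctrl libraries, with the mean and SD of each group in black and genes ordered by their mean over 6 libraries. The groups separate for *Slc25a3*, lower in oEV-EMT, and *Ppif*, higher in oEV-EMT, and overlap for the other 5 genes.

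*Slc25a5* (ENSMUSG00000016319, chromosome X of GRCm38, 36795651 to 36798807, plus strand) encodes the ADP/ATP carrier of proliferating cells. Its level was 849, 1170 and 1286 FPKM with oEV-EMT and 896, 1208 and 1138 FPKM with oEV-ctrl. Each group had 1 low library and 2 higher ones, and the groups overlapped. The means were 1102 ± 226 and 1080 ± 164 FPKM (SD, n = 3 each). The log2 fold change, always given as oEV-EMT minus oEV-ctrl on the log2(FPKM + 1) scale, was 0.02 with a 95% interval from -0.46 to 0.49 (standard error 0.21, limma adjusted p = 0.975). The sign turned after median-of-ratios scaling, at -0.18, and after upper quartile scaling, at -0.25. It also turned without library oEV-EMT 2, oEV-EMT 3 or oEV-ctrl 1, with values down to -0.11.

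*Slc25a4* (ENSMUSG00000031633, chromosome 8, 46206797 to 46211284, minus strand) encodes the ADP/ATP carrier that prevails in heart and skeletal muscle. It had 148, 219 and 166 FPKM in oEV-EMT and 137, 135 and 168 in oEV-ctrl. The highest value belonged to oEV-EMT 2, and the other libraries of both groups overlapped. On the log2 scale the fold change was 0.26, with an interval from -0.21 to 0.73 (standard error 0.21, limma adjusted p = 0.582), and it was -0.0040 after upper quartile scaling.
*Slc25a31*, the ADP/ATP carrier of the male germline, was present at 11.0 ± 1.80 FPKM (SD, n = 6), on average 0.874% of the FPKM summed over the ADP/ATP carriers. Its values overlapped between the groups, with a log2 fold change of -0.02 (limma adjusted p = 0.972).

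The balance between *Slc25a5* and *Slc25a4* does not depend on the scaling between libraries. *Slc25a5* made up 85.2%, 84.2% and 88.6% of their summed FPKM in oEV-EMT and 86.7%, 89.9% and 87.2% in oEV-ctrl. *Slc25a5* thus prevailed in every library, from 5.35 to 8.92 times the level of *Slc25a4*. The mean share was 86.0% ± 2.28 in oEV-EMT and 87.9% ± 1.73 in oEV-ctrl (SD, n = 3 each), a difference of -1.94 percentage points (exact two-sided permutation test, p = 0.3, adjusted p = 0.6 over 4 shares). With 3 libraries against 3, this test cannot go below 0.1. Adding the pseudogene values to *Slc25a5* moved the range of the share over the 6 libraries from between 84.2% and 89.9% to between 84.6% and 90.2%. The pseudogene *Gm5560* itself was listed at 12.3 to 23.1 FPKM, and *Gm5529* at 6.14 to 10.8.

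*Slc25a3* (ENSMUSG00000061904, chromosome 10, 91116574 to 91124059, minus strand) encodes the carrier that imports phosphate together with protons. It was listed at 353, 311 and 251 FPKM in oEV-EMT and at 424, 356 and 426 in oEV-ctrl. Every oEV-EMT value lay below every oEV-ctrl value, although oEV-EMT 1 and oEV-ctrl 2 were separated by less than 3 FPKM. The means were 305 ± 51.1 and 402 ± 40.0 FPKM (SD, n = 3 each). The log2 fold change was -0.40, with a 95% interval from -0.84 to 0.03 (standard error 0.20), or -0.58 relative to the median of all tested genes. It did not pass the test over all genes (limma with Benjamini-Hochberg adjustment, adjusted p = 0.361). Under the other scalings the log2 fold change lay between -0.67 and -0.31, and after scaling every library to the same total the groups overlapped. Without oEV-ctrl 1, the library with the largest unannotated entry, it was -0.36, and without oEV-EMT 3 it was -0.27.
The summed level of the ATP synthase subunits moved in the same direction, with 10685 to 12011 FPKM in oEV-EMT and 12612 to 14830 in oEV-ctrl. So did the shares of the mitochondrial genome and of the unannotated entry given above. The part of any of these in the value of *Slc25a3* was not tested. The ADP/ATP carriers together stood at 2.82, 4.46 and 5.78 times the FPKM of *Slc25a3* in oEV-EMT and at 2.44, 3.78 and 3.06 times in oEV-ctrl. These ratios overlapped between the groups.

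The porins differed in abundance in the order *Vdac3*, *Vdac2*, *Vdac1* in every library. *Vdac3* (ENSMUSG00000008892, chromosome 8, 22577075 to 22593813, minus strand) had 409, 483 and 560 FPKM in oEV-EMT and 420, 463 and 397 in oEV-ctrl. The highest value was that of oEV-EMT 3, and the groups overlapped. The log2 fold change was 0.17, equal to the median of all tested genes, with an interval from -0.25 to 0.59 (standard error 0.19, limma adjusted p = 0.694). It was -0.03 after median-of-ratios and -0.09 after upper quartile scaling.
The pseudogene *Vdac3-ps1* followed it closely, with 133, 172 and 189 FPKM in oEV-EMT and 141, 162 and 137 in oEV-ctrl. Its level was 0.325 to 0.355 times that of *Vdac3* in the 6 libraries. With sequence this similar, the split of reads between them is uncertain, while their sum is less so. Summed with its pseudogenes, *Vdac3* had a log2 fold change of 0.17 (limma adjusted p = 0.700).

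**Figure D2:**
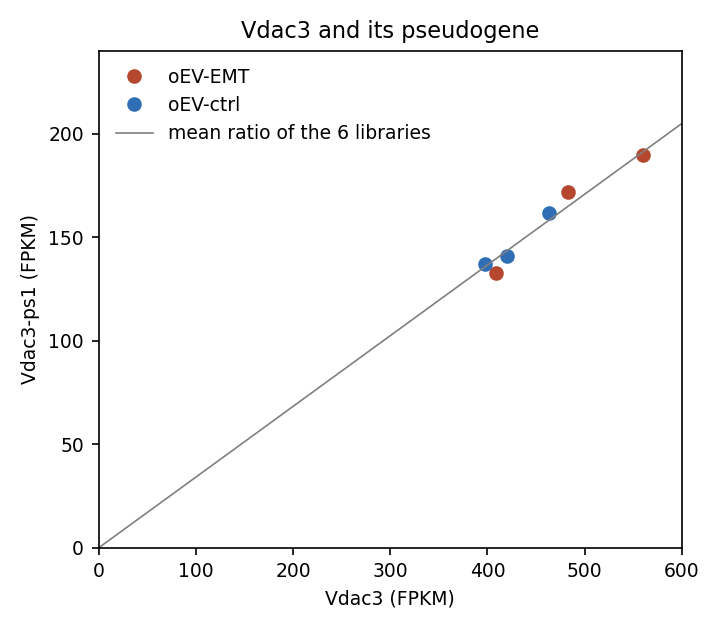
FPKM of *Vdac3-ps1* against FPKM of *Vdac3*, 1 point per library, with a line at the mean ratio of 0.341. The 6 points lie close to the line in both groups, with ratios from 0.325 to 0.355.

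*Vdac2* (ENSMUSG00000021771, chromosome 14, 21825238 to 21845879, plus strand), whose product also holds the apoptosis effector BAK at the outer membrane, was the least variable of the 7 genes. Its level was 96.1, 122 and 105 FPKM in oEV-EMT and 107, 109 and 122 in oEV-ctrl. The groups overlapped, with the lowest value in oEV-EMT 1. Its log2 fold change was -0.07, with an interval from -0.49 to 0.35 (standard error 0.19, limma adjusted p = 0.881). It was 0.02 after scaling to the same total and 0.0078 without oEV-EMT 1. The groups no longer overlapped after median-of-ratios or upper quartile scaling, with all oEV-EMT values below and log2 fold changes of -0.27 and -0.33. The share of all tested genes that separate in this way was not computed under these scalings.

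*Vdac1* (ENSMUSG00000020402, chromosome 11, 52360860 to 52389397, plus strand), the porin best known for binding hexokinase, had 89.9, 60.2 and 59.6 FPKM in oEV-EMT and 61.5, 57.3 and 66.7 in oEV-ctrl. The library oEV-EMT 1, the deepest of the 6, stood above the others, which lay between 57.3 and 66.7. Its log2 fold change was 0.15, with an interval from -0.34 to 0.64 (standard error 0.22, limma adjusted p = 0.771). Without oEV-EMT 1 it was -0.04, so its direction rested on that library, and it was -0.05 after median-of-ratios and -0.11 after upper quartile scaling.

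Within the summed FPKM of the porins, *Vdac3* held 68.7%, 72.6% and 77.3% in oEV-EMT and 71.4%, 73.6% and 67.8% in oEV-ctrl. *Vdac2* held 14.5% to 18.3% in oEV-EMT and 17.3% to 20.8% in oEV-ctrl. The share of *Vdac1* was 15.1% in oEV-EMT 1 and between 8.22% and 11.4% in the other 5 libraries. The mean shares differed between the groups by 1.96, -2.45 and 0.49 percentage points for *Vdac3*, *Vdac2* and *Vdac1*, and the groups overlapped in each (exact two-sided permutation tests, p = 0.6, 0.3 and 1, adjusted p = 0.8, 0.6 and 1). With the pseudogene values added, the *Vdac3* share was 74.1% to 82.2%.

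**Figure D3:**
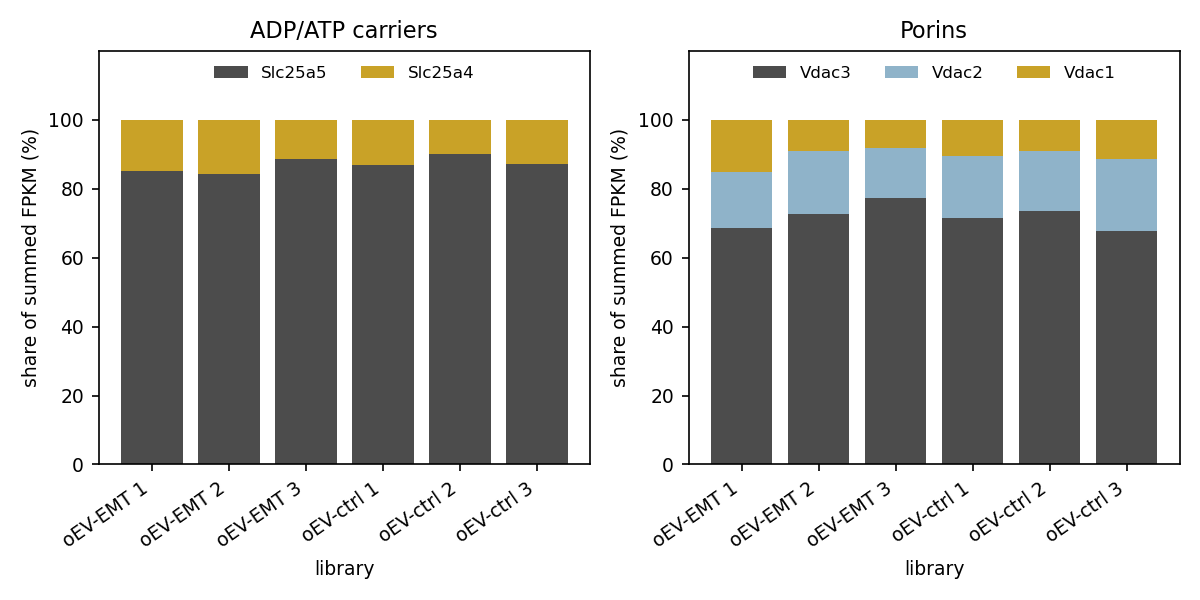
Share of the summed FPKM (percent, stacked bars that start at 0) held by each ADP/ATP carrier and by each porin in the 6 libraries. *Slc25a5* held at least 84.2% and *Vdac3* at least 67.8% in every library, and *Vdac1* took its largest share, 15.1%, in oEV-EMT 1.

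*Ppif* (ENSMUSG00000021868, chromosome 14, 25694154 to 25700468, plus strand) had 59.7, 50.7 and 48.2 FPKM in oEV-EMT and 36.7, 29.0 and 45.7 in oEV-ctrl. Every oEV-EMT value lay above every oEV-ctrl value, with oEV-EMT 3 and oEV-ctrl 3 closest to each other. The means were 52.9 ± 6.02 and 37.1 ± 8.34 FPKM (SD, n = 3 each). The log2 fold change was 0.52, with a 95% interval from 0.02 to 1.02 before adjustment for the number of genes (standard error 0.22), or 0.35 relative to the median of all tested genes. It did not pass the test over all genes (limma adjusted p = 0.310). Under the other scalings it lay between 0.26 and 0.60, and the groups overlapped after upper quartile scaling. It was 0.52 without oEV-ctrl 1 and 0.36 without oEV-ctrl 2. The summed epiblast markers given above were also higher in oEV-EMT without overlap. Relative to the median of all tested genes, 4 of these 8 markers lay above and 4 below. Of the 8 trophectoderm markers, 1 lay above and 7 below it, and of the 7 tested primitive endoderm markers 3 above and 4 below. The unannotated entry held less of every oEV-EMT library. The part of the cell types behind these markers or of that entry in the value of *Ppif* was not tested.
The FPKM of *Slc25a3* was 5.92, 6.14 and 5.21 times that of *Ppif* in oEV-EMT and 11.5, 12.3 and 9.34 times in oEV-ctrl. This ratio was formed after the values had been seen and is given as a description.

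The study used DESeq2 and called a gene at an adjusted p of no more than 0.05 and a log2 fold change of 1 or more in either direction. It reported called genes in both directions. Here its thresholds were applied to limma on log2(FPKM + 1), a different test on different values, so the counts are not comparable with the study's. None of the 7 genes met both thresholds (limma), and over all tested genes 0% did. Their adjusted p-values lay between 0.310 and 0.975. Before adjustment, 1 of the 7, *Ppif*, had a p of at most 0.05, against 15.4% of all tested genes. The groups did not overlap in 2 of the 7 genes, or 28.6%, against 22.4% of all tested genes. For the oEV-EMT values lying above, as in *Ppif*, the share over all genes was 18.1%, and for those lying below, as in *Slc25a3*, 4.34%. With so few genes these shares are near the background. The background in each direction depends on the scaling. Before adjustment (limma, p of at most 0.05), 1527 genes were higher and 304 lower in the values as deposited. The numbers were 767 and 763 after median-of-ratios, 550 and 963 after upper quartile scaling, and 1921 and 192 after scaling to a total of 1000000. All shares by direction given here are those of the deposited values. The median log2 fold change of the 7 genes was 0.15, against 0.17 over all 11924 tested genes. Median-of-ratios scaling moved the median of all genes by -0.16, and upper quartile scaling by -0.22. Relative to that median, *Slc25a5*, *Vdac2* and *Slc25a3* lay below and *Slc25a4* and *Ppif* above it under all 4 scalings, counting the values as deposited. None of the intervals reached -1, and the interval of *Ppif* alone reached 1.

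**Figure D4:**
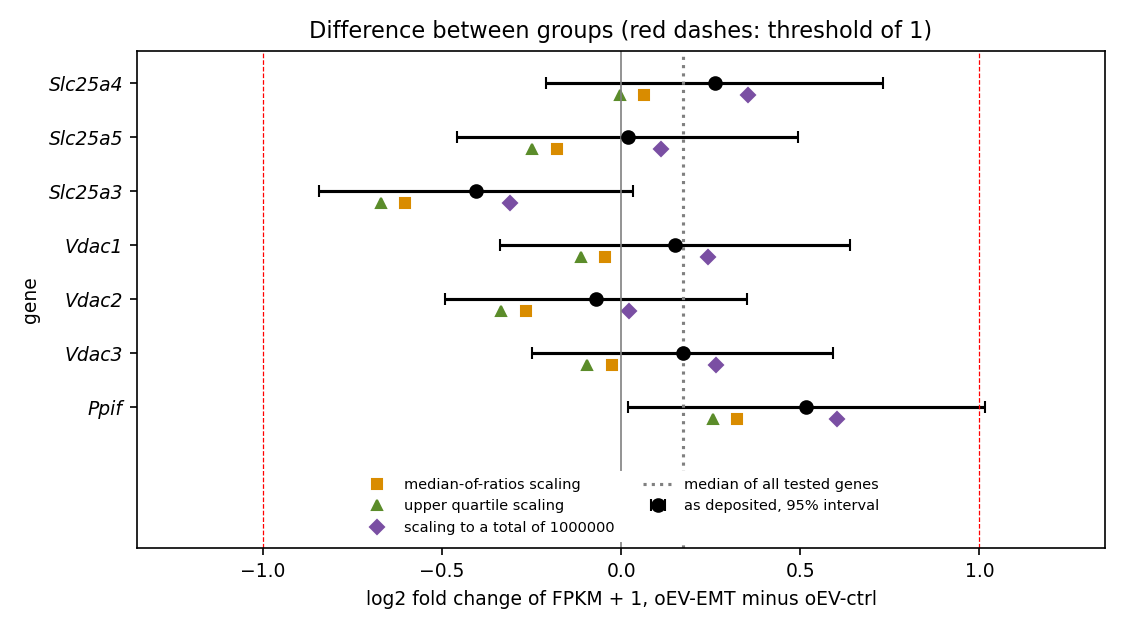
Log2 fold change of each gene (oEV-EMT minus oEV-ctrl) with its 95% interval in black, and the same after 3 other scalings in colour below it. The dotted line is the median of all tested genes at 0.17, and the intervals of all genes but *Ppif* include 0.

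Across the 6 libraries, and as a description only, log2(FPKM + 1) of *Slc25a3* and *Vdac3* went in opposite directions (Pearson's r = -0.92), also within the groups (r = -0.97). *Slc25a4* and *Vdac2* varied together within the groups (r = 0.99), less so over all 6 libraries (r = 0.63). *Slc25a5* and *Vdac3* had an r of 0.70 over the 6 libraries. All these values share the libraries and their scaling. Among all annotated tested genes, those with the profile most like each member over the 6 libraries were *Pak1ip1* and *Hacd1* for *Slc25a4*, and *Rab31* and *Lgals4* for *Slc25a5*. For *Slc25a3* they were *Ube2q1* and *Lrrfip1*, and for *Ppif* *Lars2* and *Rhod*. For the porins they were *Dync1li1* and *Npm1* (*Vdac1*), *Acad9* and *Gm3286* (*Vdac2*), and *Pmis2* and *Lnpk* (*Vdac3*). Pearson's r of these pairs lay between 0.982 and 0.998, over 6 points and with the closest pairs picked from the annotated genes among the 11924 tested. Some of these genes were low, with means of 0.871 FPKM for *Lars2*, 1.75 for *Gm3286* and 2.72 for *Rhod*.

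The genes that work beside these carriers were described by 5 lists. Of 47 other genes of the SLC25 family, *Slc25a31* included, 30 were tested, and 0 passed both thresholds (limma). Before adjustment, 7 had a p of at most 0.05 in the higher direction and 0 in the lower, where the shares over all genes were 12.8% and 2.55%. Their median log2 fold change was 0.26. The summed FPKM of these 47 other genes, without *Slc25a3*, *Slc25a4* and *Slc25a5*, was 576 to 662 in oEV-EMT and 446 to 484 in oEV-ctrl, without overlap. *Slc25a39*, a carrier needed for glutathione import and the most abundant of them at a mean of 123 FPKM, had 199, 161 and 133 FPKM in oEV-EMT and 104, 58.6 and 85.5 in oEV-ctrl. Its log2 fold change was 1.00 (standard error 0.25, limma adjusted p = 0.163). *Slc25a20*, the carnitine and acylcarnitine carrier, had a log2 fold change of 0.73 and *Slc25a1*, the citrate carrier, 0.71, with adjusted p-values of 0.190 and 0.241. In these 3 genes, named for the smallest unadjusted p of the list, the groups did not overlap. Over the 30 tested, 6 did not overlap, all with oEV-EMT above, against 18.1% of all tested genes. In oEV-EMT 1, *Slc25a39* stood above *Slc25a4*.

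Of the 14 tested enzymes of phosphate transfer, 3 had an unadjusted p of at most 0.05, all higher in oEV-EMT (12.8% of all genes were), and 0 passed both thresholds (limma). The median log2 fold change of this list was 0.22. They were *Ak3*, a matrix adenylate kinase that uses GTP, at 0.72, *Nme4*, a mitochondrial nucleoside diphosphate kinase, at 0.79, and its cytosolic relative *Nme1* at 0.52 (limma adjusted p = 0.201, 0.255 and 0.302). Over this list, 3 genes did not overlap with oEV-EMT above and 1 with oEV-EMT below, against 18.1% and 4.34% of all tested genes. Those above included *Ak3* and *Nme4*, while *Nme1* overlapped. The gene below was *Nme2*, another nucleoside diphosphate kinase, named after its values were seen (log2 fold change -0.26, limma adjusted p = 0.536). The summed FPKM of the list overlapped between the groups.
Of 13 tested partners of the porins and the permeability transition and genes of the calcium uniporter, 3 were higher and 2 lower at that unadjusted threshold, against 12.8% and 2.55% of all genes, and 0 passed both thresholds (limma). The median log2 fold change was 0.25. *Bax*, which permeabilises the outer membrane in apoptosis, had 121 ± 21.6 FPKM in oEV-EMT and 71.5 ± 23.4 in oEV-ctrl (SD, n = 3 each). *Tspo*, an outer membrane protein found with porins, had 15.2 ± 1.38 and 9.68 ± 1.46 FPKM, and *Mcu*, the pore of the calcium uniporter, 4.47 ± 1.80 and 2.25 ± 0.456. Their log2 fold changes were 0.80, 0.60 and 0.71, with limma adjusted p-values of 0.222, 0.234 and 0.254. The groups did not overlap in any of these 3, which were named for their smallest unadjusted p. Over the 13 tested, 3 did not overlap with oEV-EMT above and 1 with oEV-EMT below, against 18.1% and 4.34% of all genes. The 2 lower genes, named here after their values were seen, were *Smdt1*, a small subunit of the uniporter, at -0.63 with overlap, and *Atpif1*, the inhibitor of the ATP synthase, at -0.42 without overlap (limma adjusted p = 0.313 and 0.319). The summed FPKM of the list was 604 to 796 in oEV-EMT and 789 to 811 in oEV-ctrl, with overlap.

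Among the other cyclophilins, 14 of 15 were tested, with 3 higher and 0 lower before adjustment (12.8% and 2.55% of all genes), 0 past both thresholds (limma) and a median log2 fold change of 0.12. *Ppid*, a cytosolic cyclophilin that binds the chaperone HSP90, had 141 ± 5.70 FPKM in oEV-EMT and 87.6 ± 14.3 in oEV-ctrl (SD, n = 3 each). This was a difference of 0.69 on the log2 scale (limma adjusted p = 0.174). *Ppil2* had a log2 fold change of 0.78 with overlap between the groups, and *Ppic* 0.53 without overlap. Over the 14 tested, 4 did not overlap, all with oEV-EMT above, against 18.1% of all tested genes. Of the 14, 7 lay above and 7 below the median of all genes, and *Ppia*, which encodes the cytosolic cyclophilin A, had a log2 fold change of -0.041.
Among the 16 tested ATP synthase subunits, the median log2 fold change was -0.19 and 15 were under the all-gene median, against single-gene values of 0.02, 0.26 and -0.40 for *Slc25a5*, *Slc25a4* and *Slc25a3*. Before adjustment 3 were lower and 1 higher, against 2.55% and 12.8% of all genes, and 0 passed both thresholds (limma). Those 3 were *Atp5k* at -1.34, *Atp5l* at -1.09 and *Atp5j* at -0.99 (limma adjusted p = 0.0951, 0.0951 and 0.164), subunits of its membrane part and peripheral stalk. By real-time RT-PCR, the study found no statistical difference for *Atp5l*. The differences between the carriers and the ATP synthase subunits were not tested.

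**Figure D5:**
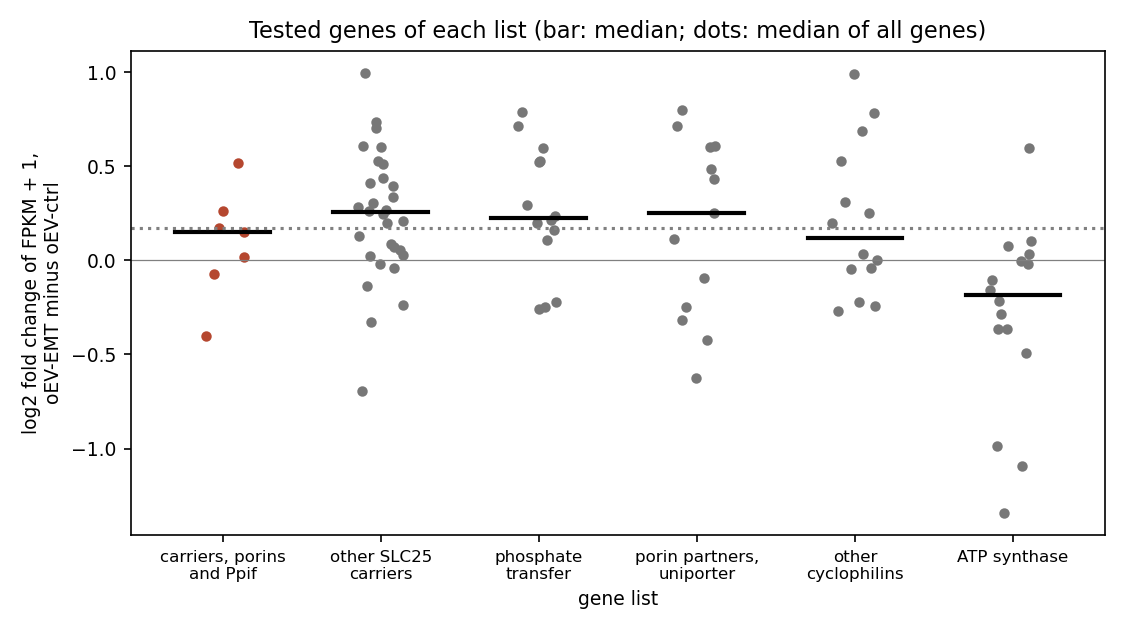
Log2 fold change of every tested gene of the 7-gene set and of the 5 context lists, with the median of each list as a bar and the median of all tested genes as a dotted line at 0.17. The 7-gene set has its median at 0.15, and the ATP synthase list at -0.19.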

How the data were processed

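Polyadenylated RNA of 6 blastocyst pools was sequenced. The authors aligned the reads, assembled them with StringTie and deposited 1 value per gene and library. The submitters' processing notes name mm10, and the aligner and the program that computed the values are not given in the sources used here. The methods speak of TPM, but the library sums differ and exceed 1000000, so the deposited values were taken as FPKM. Of 55487 Ensembl identifiers, 55141 were matched to symbols in GENCODE M21 (GRCm38, the same assembly as mm10).

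Genes with at least 1 FPKM in at least 3 libraries were tested on log2(FPKM + 1) with limma 3.58.1 in R 4.3.3 (trended and robust variance, Benjamini-Hochberg adjustment over 11924 genes), a scale that understates changes of low genes. The procedure was tested on simulated data. Read totals are unknown, so no counting interval is given. Shared sequence was searched as identical 50-base stretches on either strand, counting genes that share at least 10% of the stretches of either gene. Named genes were all members, from each context list up to 3 with the smallest unadjusted p at or under 0.05 (otherwise the 2 with the highest mean), and the 2 annotated genes with the highest Pearson correlation with each member. The members, lists and tests were chosen with earlier results of these data known, and the summing of pseudogenes with members was added after the data were seen. Alternatives left out each library in turn or changed the scaling, pseudocount, filter, variance model, library weights or replicate block. Python 3.11.15 with matplotlib 3.10.9 drew the figures. Protein sequences were not used here.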

Additional observations from a re-analysis of the deposited data

How the results depend on the processing

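No setting brought any of the 7 genes past both thresholds, with adjusted p-values from 0.177 (*Slc25a3*, library weights) upward. The number of genes past both thresholds over the whole table moved from 0 to 104 with library weights, and leaving out 1 library at a time gave 0 to 17 (17 without oEV-ctrl 3, 4 without oEV-EMT 1 and 1 without oEV-EMT 3). With the replicate number as a block it was 21. The numbers were not taken as a pairing, since the labels give them no meaning and the study's methods describe no block. Correlations of deviations from the group means between libraries of the same number were 0.119, -0.0442 and 0.0388. Of the 3 oEV-EMT libraries, 2 correlated best with an oEV-ctrl library of another number. With 3 libraries per group, these correlations cannot exclude a pairing.

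The sign of the log2 fold change turned for *Slc25a4* after upper quartile scaling (-0.0040), for *Slc25a5*, *Vdac1* and *Vdac3* after median-of-ratios (-0.18, -0.045 and -0.026) and upper quartile scaling (-0.25, -0.11 and -0.094), and for *Vdac2* after scaling to a total of 1000000 (0.023) and with library weights (0.013). When single libraries were left out, it ranged from -0.11 to 0.19 for *Slc25a5*, -0.043 to 0.25 for *Vdac1*, -0.16 to 0.0078 for *Vdac2*, 0.10 to 0.38 for *Slc25a4*, 0.06 to 0.29 for *Vdac3*, -0.52 to -0.27 for *Slc25a3* and 0.36 to 0.67 for *Ppif*. *Slc25a3* and *Ppif* kept their sign under every setting run. Of the 7 genes, 3 did not overlap between the groups after median-of-ratios scaling, 2 after upper quartile scaling and 1 after scaling to a total of 1000000. With each library left out, 2 to 3 did not. With fewer libraries, groups separate more easily. The share over all tested genes was not computed for these settings, so these counts do not show how steady the separation was.

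The shares of *Vdac1* and *Vdac3* had differences between -1.67 and 1.78 and between -0.24 and 4.04 percentage points with each library left out, and those of *Slc25a5* and *Vdac2* between -3.23 and -0.95 and between -3.44 and -1.42. Without a filter, the reference grew to 31842 genes and its median went from 0.17 to 0.023, while the lists kept their genes. Relative to it, the list medians were 0.23 for the other SLC25 carriers, 0.20 for phosphate transfer, 0.23 for porin partners, 0.094 for cyclophilins and -0.21 for ATP synthase, a shift by the fall of that reference. With at least 5 FPKM in 3 libraries, that of the porin partners, over fewer genes, was -0.19. With each library left out, the ranges were -0.081 to 0.12 for the porin partners, -0.0023 to 0.17 for phosphate transfer, 0.03 to 0.10 for the other carriers, -0.10 to 0.0016 for cyclophilins and -0.42 to -0.23 for ATP synthase. The cause of the shifts with single libraries left out was not tested. Precision is limited by 3 libraries per group and by depth that differed up to 2.07 times.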
